A study of Mus musculus with 6 samples.

Results

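Keratins are the intermediate filament proteins of epithelial cells, and their RNAs were followed here in mouse skin wounds labelled as having beta-catenin knocked down or stabilised. The members are all probes whose platform symbol is Krt followed by digits alone, which gave 60 of the 45281 probes and 45 of the 19057 genes with a probe of their own. The rule leaves out keratins whose symbol ends in a letter, such as Krt6a and Krt6b. Total RNA of whole wounds of full-thickness dorsal skin, taken 8 days after injury from C57/BL6 mice, was hybridised to 6 Illumina bead arrays. The knockdown group (2 arrays) came from tamoxifen-treated mice with floxed exons 2 to 6 of the beta-catenin gene Ctnnb1 and a Cre-Esr1 gene. The tamoxifen control group (2 arrays) had the same floxed exons and the same drug without Cre-Esr1. The stabilised array (1) came from a mouse with a floxed exon 3 that was given an adenovirus carrying Cre, and the GFP control array (1) from the same genotype given an adenovirus carrying GFP. All 6 mice thus carried floxed Ctnnb1, and the promoter that drives Cre-Esr1 is not given in the labels. Replicate 1 of both tamoxifen groups came from a mouse of 5 months and all other arrays from mice of 2 months.

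Keratin filaments are built from pairs of an acidic type I and a basic type II keratin, and the pair that a keratinocyte makes follows its place in the epithelium. Basal cells of the epidermis make Krt5 with Krt14, cells that leave the basal layer switch to Krt1 with Krt10, and injured epidermis adds Krt6, Krt16 and Krt17. The inner root sheath of the hair follicle and the hair shaft have keratin sets of their own. Beta-catenin carries the canonical Wnt signal to Tcf/Lef factors in the nucleus and is required for hair follicle formation, and its exon 3 encodes the part that marks the protein for degradation.

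Between 15217 and 16656 probes were detected on an array, which means a detection p under 0.01. The lowest count was on the stabilised array, against 16353 on the GFP control array. The deposited log2 values had a median of 5.12 on each array, which their shared quantiles fix, so it is no measure of quality. Ctnnb1 had 4 probes, detected on all arrays, and the brightest read 11.93 and 11.86 log2 in the knockdown wounds against 12.04 and 11.48 in the tamoxifen controls. On the adenovirus arrays this probe read 11.40 in the stabilised wound and 11.49 in the GFP control. The 4 knockdown differences ran from -0.30 to 0.20, so these probes do not by themselves show the loss, and the position of each probe relative to the floxed exons was not determined here. The X-inactivation RNA Xist was detected on the adenovirus arrays and not on the tamoxifen arrays, while the Y-linked Eif2s3y was detected on the tamoxifen arrays and not on the adenovirus arrays. The experiments thus differed in sex as well as in age, virus, allele and tamoxifen, which the labels name for the tamoxifen groups alone. Levels set across the experiments carry all of these.

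Of the 45 keratin genes, 23 were detected on at least 1 array, 12 on all 6, and 22 on none. The 12 were the basal Krt5, Krt14 and Krt15, the suprabasal Krt1, Krt10, Krt78 and Krt80, the wound-induced Krt16 and Krt17, the follicle keratin Krt79, and Krt7 and Krt23, which are grouped here with the keratins of simple epithelia. All 3 basal and both wound-induced genes were thus present throughout. Detection was partial in the other groups, with 7 of 11 suprabasal and differentiation keratins, 6 of 9 follicle sheath keratins, 1 of 9 hair shaft keratins, 3 of 6 simple epithelium keratins and 1 of 5 others seen on at least 1 array. The wounds therefore held RNA of the epidermal programme on all arrays, whereas nearly all hair shaft keratins were below detection. The 22 genes without detection lay between 4.50 and 6.08 log2, around the array median and mostly under the lowest detected signals of 5.95 to 6.30. They were Krt4, Krt9, Krt13 and Krt76 of the suprabasal group, Krt25, Krt26 and Krt72 of the sheath, and Krt31, Krt34, Krt35, Krt39, Krt40, Krt82, Krt86 and Krt87 of the shaft. The simple epithelial pair Krt8 and Krt18, with Krt19, and the genes Krt12, Krt88, Krt90 and Krt222 made up the rest. For these genes the arrays give no difference in either direction, only a bound near the floor.

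**Figure D1:**
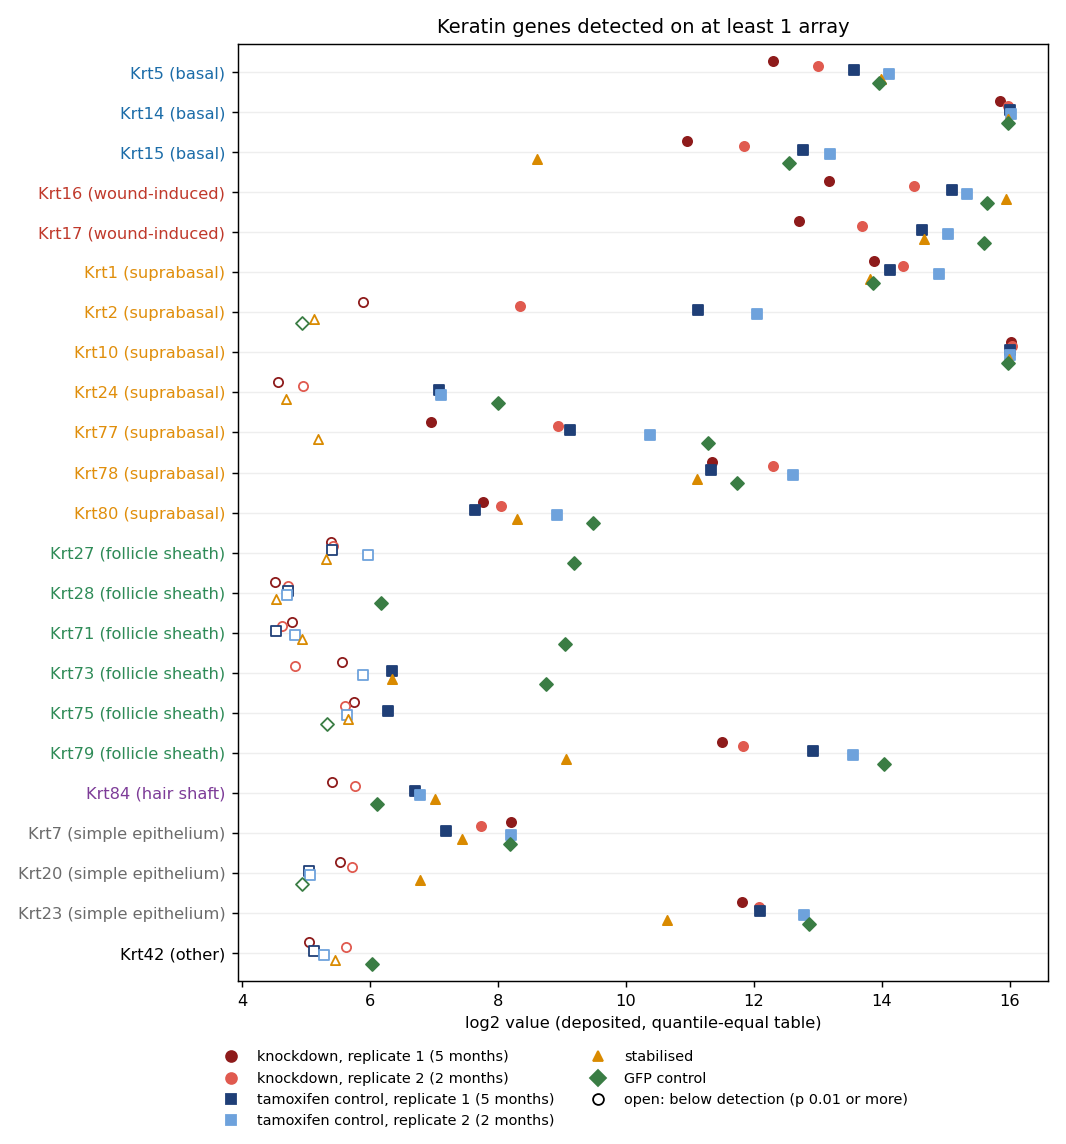
Log2 level of each keratin gene detected on at least 1 array, 1 point per array, with knockdown, tamoxifen control, stabilised and GFP control arrays marked apart and genes grouped by role. Krt10 and Krt14 sit near the top of the scale on all arrays, while Krt2, Krt15, Krt77 and Krt79 spread over several log2 units.

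The abundant pairs came close to the end of the array's range. The Krt10 probe ranked between 2 and 8 among all probes of an array and lay within 0.06 log2 of the array maximum of 16.04. The Krt14 probe ranked between 4 and 18 and lay within 0.19 log2 of it. Krt16 ranked 10 on the stabilised array and as low as 466 elsewhere. A probe this close to the maximum can show little further increase, so the small differences of Krt10 and Krt14 reported below are limited by the range of the array.

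The first comparison asked how keratin RNA differed in wounds labelled as beta-catenin knockdown. Most measured keratins were lower in knockdown wounds than in tamoxifen control wounds, with the basal Krt5 and Krt15, the wound-induced Krt16 and Krt17, the differentiation keratins Krt2 and Krt77, and the follicle keratin Krt79 2-fold or more down in mean level. Without knockdown replicate 1, Krt5 (-0.83 log2), Krt16 (-0.70) and Krt77 (-0.82) were under 2-fold, and without control replicate 2 Krt5 (-0.90) was. Krt24 was lower too, with a bound of 1.99-fold because it was below detection in the knockdown wounds. Krt1, Krt10, Krt14 and Krt78, which belong to the same cell layers, lay much closer to their controls. No keratin passed the test: limma with Benjamini-Hochberg adjustment over 9855 genes called 0 keratins and 0 genes in all (0%). At an unadjusted p under 0.05 there were 434 genes. The lowest keratin adjusted p by limma was 0.317, for Krt24, and 0.936 among keratins detected on all 4 tamoxifen arrays. All keratin differences in this comparison are therefore values within a fit that cannot separate them from the spread between 2 arrays a group. The labels call the arrays biological replicates. With 2 of them a group, each gene has 2 residual degrees of freedom, and limma's default eBayes also borrows spread from the other genes.

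Of the 16 keratins measured, 14 were lower and 2 higher in the knockdown mean, where 48.1% of all genes were lower. In 11 of the 16 both knockdown arrays lay below both control arrays, a pattern that 16% of all genes showed. At an unadjusted p under 0.05, 8 keratins were lower and 0 higher, and 2.52% of all genes were lower by that rule. The median keratin difference was -1.17 log2, against 0.01 for all genes, and it was -0.76 without knockdown replicate 1. These counts include genes that entered through their high control arrays, namely Krt24 and Krt84, which were below detection on both knockdown arrays, and Krt2, which was detected on 1 of them. Among the 13 keratins detected on all 4 arrays, 11 were lower, where 47.2% of such genes were, and the median was -0.49 log2. In 8 of the 13 both knockdown arrays lay below both controls, and 5 were lower at an unadjusted p under 0.05 by limma. The shares of all genes for these counts, 16% and 2.52%, are not limited to genes detected on all 4 arrays. In RNA of whole tissue, fewer cells of a type and less RNA per cell cannot be told apart.

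**Figure D2:**
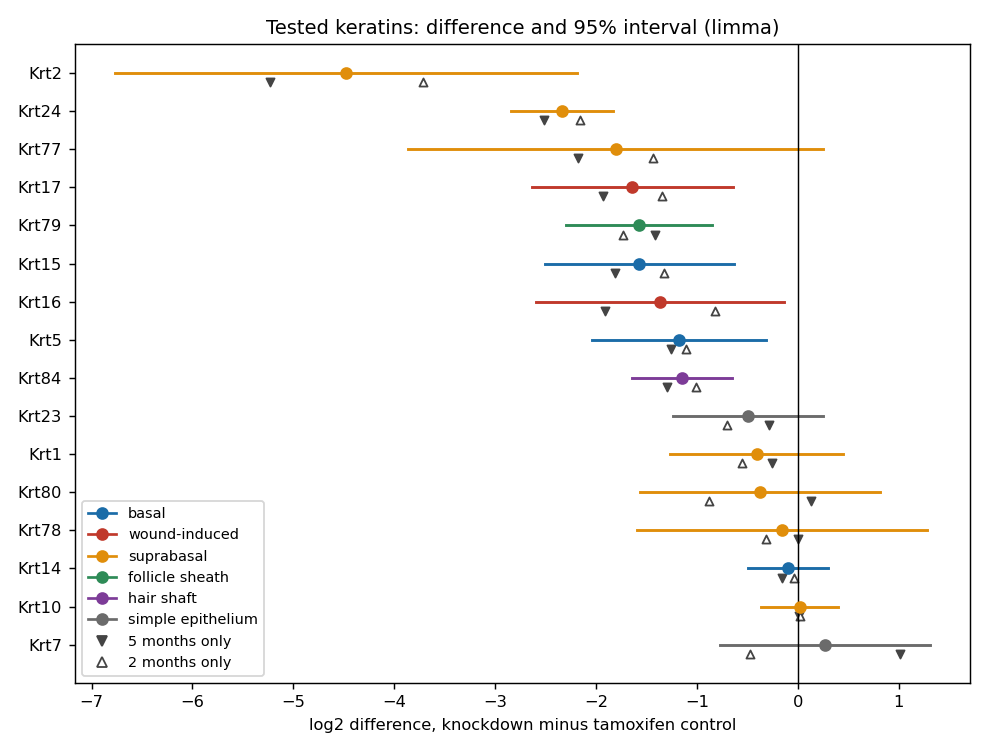
Log2 difference, knockdown minus tamoxifen control, for the 16 keratins measured, with the mean difference, its 95% interval from limma, and the separate differences at 5 months and at 2 months. Krt2 lies at -4.48 and Krt24 at -2.34, and Krt1, Krt10, Krt14, Krt78 and Krt80 lie close to 0.

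Among the basal keratins, Krt5, the type II partner of Krt14, read 12.30 and 13.01 log2 in the knockdown wounds against 13.56 and 14.11 in the control wounds. Both knockdown arrays were below both controls, a mean difference of -1.18 log2 or 2.27-fold lower (SE 0.33, limma adjusted p = 0.976). Krt14 read 15.851 and 15.979 in knockdown wounds against 16.003 and 16.016 in controls, a difference of -0.09 log2 at the upper end of the range. Krt15, a type I keratin of basal cells that also marks the hair follicle bulge, read 10.96 and 11.85 in knockdown wounds against 12.77 and 13.18 in controls. Its groups did not overlap, and its difference of -1.57 log2 had an SE of 0.36 and a limma adjusted p of 0.976. Krt5 and Krt15 were thus lower by similar amounts, while Krt14 of the same layer, on a probe near its maximum, gave a far smaller difference.

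The wound-induced keratins were lower as well. Krt16, a type I keratin of activated epidermis, read 13.18 and 14.51 log2 in the knockdown wounds against 15.09 and 15.33 in the controls, a difference of -1.37 or 2.58-fold lower. Krt17, made in activated epidermis and in the outer root sheath, read 12.70 and 13.69 against 14.63 and 15.04, a difference of -1.64 or 3.12-fold lower. Neither gene's groups overlapped, and the limma adjusted p was 0.976 for both. Their type II partners outside the symbol rule lay on the same side, with differences of -1.24 for Krt6a and -1.83 for Krt6b. Krt6a and Krt6b are close relatives, and cross-hybridisation between their probes was not tested.

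The suprabasal keratins divided by size. Krt2, a type II keratin of the uppermost living layers, read 5.89 and 8.33 log2 in the knockdown wounds against 11.13 and 12.05 in the controls. Both controls were far above both knockdown arrays, of which the first was below detection, and the mean difference was -4.48 log2 or 22.3-fold lower (SE 0.87, limma adjusted p = 0.976). The difference was -5.23 at 5 months and -3.72 at 2 months. Krt24, a type I keratin, was below detection in the knockdown wounds at 4.55 and 4.94 and read 7.07 and 7.10 in the controls, at least 1.99-fold lower. It had the smallest adjusted p of the family, 0.317 by limma, with a measured difference of -2.34 log2. Both values rest on knockdown readings below detection. Krt77, a type II keratin of differentiating epidermis in the mouse, read 6.96 and 8.93 in knockdown wounds against 9.13 and 10.37 in controls. Its difference of -1.81 log2 (SE 0.78, limma adjusted p = 0.976) was of the same order as the gap between the ages within a group. Within an age it differed by -2.17 at 5 months and -1.44 at 2 months.

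The main suprabasal pair behaved differently in size. Krt1 read 13.87 and 14.34 log2 in knockdown wounds against 14.13 and 14.89 in controls, so that the groups overlapped, at a difference of -0.41. Krt10 read 16.016 and 16.029 against 16.007 and 16.003, a difference of 0.02 at the upper end of the range. Krt78 and Krt80, both type II keratins of differentiating epithelium, had 3 probes each. The Krt78 probes differed by -0.15 to -0.07 log2 and the Krt80 probes by -0.40 to -0.11, so the probes of each gene lay on the same side. The direction of both rested on single arrays, since Krt78 became 0.33 without knockdown replicate 1 and 0.49 without control replicate 2, and Krt80 became 0.27 without control replicate 2.

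Krt79, a type II keratin of the upper follicle and the sebaceous duct, read 11.50 and 11.83 log2 in the knockdown wounds against 12.92 and 13.56 in the controls. Its groups did not overlap, its knockdown arrays were close together, and the difference was -1.57 log2 or 2.97-fold lower (SE 0.28, limma adjusted p = 0.936). Krt84, a type II hair keratin, was below detection in the knockdown wounds at 5.41 and 5.77 and read 6.70 and 6.78 in the controls. On the deposited scale it was at least 1.56-fold lower (limma adjusted p = 0.866). With raw median-centred arrays it differed by -0.47 log2, a smaller fold than that bound. Krt23 differed by -0.49 log2. Krt7, a type II keratin of simple epithelia, differed by 0.27 with groups that overlapped, and by -0.24 without control replicate 1. The 7 other keratins detected somewhere, Krt20, Krt27, Krt28, Krt42, Krt71, Krt73 and Krt75, were detected on too few tamoxifen arrays to be tested.

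Replicates of the 2 ages differed in a shared direction. In 14 of the 16 keratins, replicate 2 (2 months) read above replicate 1 (5 months) in both tamoxifen groups, a pattern that 2335 of all genes tested showed (23.7%). Within an age, the median keratin difference, knockdown minus control, was -1.27 log2 at 5 months and -0.94 at 2 months, and 12 of the 16 were lower at both. Krt16 differed by -1.91 at 5 months and -0.82 at 2 months, and Krt79 by -1.41 and -1.73, so the larger gap was not always at the same age. With 1 mouse per group and age, age and replicate cannot be told apart.

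The second comparison asked how keratins differed when beta-catenin had been stabilised, with 1 array against 1 and therefore no test. In the stabilised wound Krt15, Krt79 and the inner root sheath keratins Krt27, Krt71 and Krt73 were lower than in the GFP control. Krt23 and the differentiation keratins Krt24, Krt77 and Krt80 were lower too. The hair shaft keratin Krt84 was 0.90 log2 higher. The main epidermal pairs Krt5 with Krt14 and Krt1 with Krt10 differed by 0.05 log2 or less. Of the 21 keratins detected on at least 1 of the 2 arrays, 9 were at least 2-fold lower in the stabilised wound with genes below detection on 1 array at their bound, where 3.3% of all genes were, and 0 were at least 2-fold higher, where 2.32% were. By measured values alone the counts were 10 lower (4.91% of all genes), with Krt28 added, and 1 higher (2.76%), which was Krt20. The median was -0.94 log2, or -0.76 with genes below detection at their bound, against 0.05 for all genes.

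Detection on 1 array alone fixed the direction for 7 of the 21 keratins, Krt24, Krt27, Krt28, Krt42, Krt71 and Krt77 in the GFP control and Krt20 in the stabilised wound. Of the 14 detected on both arrays, 5 were at least 2-fold lower, Krt15, Krt23, Krt73, Krt79 and Krt80, and 0 higher, where 2.61% of all genes detected on both arrays were lower. With arrays centred on their raw median instead, all genes shifted to a median of -0.11 log2. Under that scaling 294 genes were at least 2-fold lower and 58 higher (16.5% of these higher), against 491 and 276 as deposited (36% higher). By measured values the keratin counts under it were 10 lower and 0 higher, with Krt17 among the lower and Krt28 not. The keratins near the floor moved most, with Krt77 at -4.19 log2, Krt27 at -2.24, Krt71 at -2.25, Krt73 at -1.61, Krt24 at -1.58 and Krt20 at 0.58, so the bounds given below hold for the deposited scale and some exceed the folds on this other one.

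Krt79 had the largest difference of the keratins detected on both arrays, with 9.07 log2 in the stabilised wound against 14.03 in the GFP control, 31.2-fold lower. Krt15 read 8.61 in the stabilised wound against 12.54 in the GFP control, 15.3-fold lower. Krt77 was below detection in the stabilised wound at 5.18 and read 11.29 in the GFP control, at least 31.8-fold lower. All 3 were also lower in the knockdown wounds than in their own controls. Krt23 read 10.65 in the stabilised wound against 12.86 in the GFP control, 4.64-fold lower. Krt24 was below detection at 4.67 in the stabilised wound against 8.004 in the GFP control, at least 3.26-fold lower. Krt80 read 8.29 against 9.49, a difference of -1.20 log2, with its 3 probes between -1.53 and -1.20.

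The inner root sheath keratins were highest in the GFP control, and Krt27, Krt28 and Krt71 were detected on no other array. Krt71, a type II keratin of the inner root sheath, was below detection in the stabilised wound at 4.93 log2 and read 9.05 in the GFP control, at least 6.74-fold lower. Krt27, a type I partner from the same sheath, was below detection at 5.31 in the stabilised wound against 9.18, at least 7.36-fold lower. Krt73 read 6.34 in the stabilised wound against 8.74 in the GFP control, 5.30-fold lower, and its 2 probes lay between -2.41 and -2.19 log2. Krt28 was below detection at 4.52 against 6.17, which is too close to the floor for a fold. On the tamoxifen arrays these sheath genes were low, with Krt71 between 4.53 and 4.83, Krt27 between 5.38 and 5.96, and Krt73 between 4.83 and 6.34. The other sheath keratins Krt25, Krt26 and Krt72 were below detection on all 6 arrays.

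This placement against the tamoxifen arrays differed between genes. Of the 10 keratins at least 2-fold lower by measured value, the GFP control read above all 4 tamoxifen arrays for 9, all but Krt15. The stabilised wound read below all 4 tamoxifen arrays for Krt15, Krt23, Krt77 and Krt79, and Krt27 also did so but was below detection on all of these arrays. The inner root sheath differences thus came with a GFP control array that was high for the series, and the Krt15 difference with a stabilised array that was low for it. Krt20, known from the intestine and from Merkel cells, read 6.77 in the stabilised wound and was below detection at 4.93 in the GFP control, at least 1.69-fold higher. Krt2 was below detection on both adenovirus arrays, at 5.11 in the stabilised wound and 4.94 in the GFP control, against 11.13 and 12.05 in the tamoxifen controls. That gap lies across experiments that differ in sex, virus, tamoxifen and allele.

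Krt16 read 15.95 log2 in the stabilised wound against 15.65 in the GFP control, a difference of 0.30. Krt17 read 14.66 against 15.60, a difference of -0.94, so these wound-induced keratins lay on opposite sides. The brightest probes of Krt6a and Krt6b were 0.65 and 0.68 higher in the stabilised wound, while a second Krt6a probe differed by 0.05 and a second Krt6b probe by 0.92. Krt5 read 13.98 against 13.96, Krt14 15.98 against 15.97, Krt1 13.81 against 13.86 and Krt10 15.99 against 15.98, each pair within 0.05 log2. Krt84 was 0.90 log2 higher in the stabilised wound.

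The 2 comparisons share no array, so their differences can be set side by side for the 15 keratins measured in both. Lower in both were 9 keratins, Krt1, Krt15, Krt17, Krt23, Krt24, Krt77, Krt78, Krt79 and Krt80. Of all genes measured in both, 25.2% were lower in both. Krt24 was below detection on both knockdown arrays and in the stabilised wound, so the detection filter fixed its place on both sides. Krt77 entered the adenovirus side through the GFP control alone. Krt1 was only 0.05 log2 from its control in the adenovirus pair, and the knockdown direction of Krt78 and Krt80 reversed when 1 array was left out, as given above. Lower in knockdown wounds and at or above their control in the stabilised wound were Krt5, Krt14, Krt16 and Krt84. Of these, Krt14 lay at the top of the range, Krt5 was 0.02 log2 from its control and Krt84 was below detection on both knockdown arrays. Krt7 lay the other way, and Krt10 was within 0.02 log2 of its control in both. The 9 span basal, wound-induced, suprabasal, follicle and simple epithelial groups, and the adenovirus side of this count has no replicate check.

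**Figure D3:**
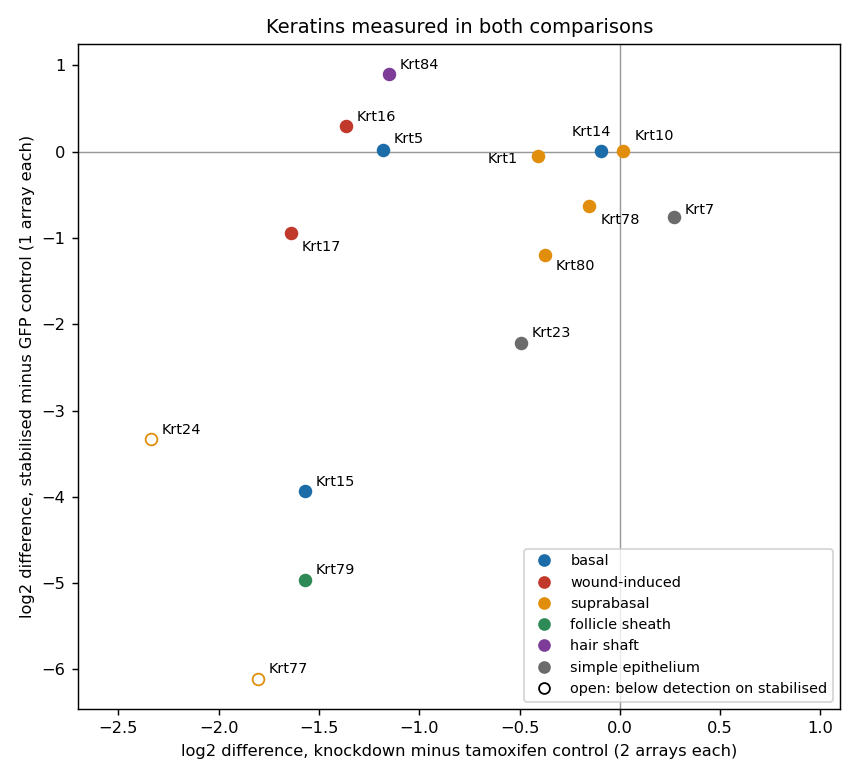
Log2 difference of 15 keratins in the knockdown comparison (horizontal axis) and in the adenovirus pair (vertical axis), coloured by role, with open points for genes below detection in the stabilised wound. Krt15, Krt24, Krt77 and Krt79 lie low on both axes, and Krt5, Krt16 and Krt84 lie left of 0 and at or above 0.

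The difference between the comparisons was itself tested in limma, as (stabilised minus GFP control) minus (knockdown minus tamoxifen control). The fit took its spread from the tamoxifen groups alone and so assumed that the lone adenovirus arrays vary like them. Of 17 keratins measured, 0 passed an adjusted p under 0.05, and 1 of all 10119 genes did (0.00988%), the Fc receptor gene Fcer1g, named after its value was seen. At an unadjusted p under 0.05 there were 8 of the 17 keratins and 525 of all genes. Among the 12 keratins detected on all 6 arrays there were 3. The rest of the 8, Krt2, Krt24, Krt73, Krt77 and Krt84, were below detection on at least 1 array, Krt2 on both adenovirus arrays. The smallest keratin adjusted p was 0.674, for Krt79, with an interaction of -3.39 log2 (SE 0.48), which means that it was further below its control in the stabilised wound. Krt84, below detection on both knockdown arrays, had an interaction of 2.05 (limma adjusted p = 0.728) and Krt16 of 1.67 (limma adjusted p = 0.947). In the same fit, the stabilised minus GFP control difference had an unadjusted p under 0.05 for 7 of the 17 keratins, against 9.15% of all genes, and an adjusted p under 0.05 for 0. A keratin response that differs between loss and stabilisation was not shown by this test, which recovered 2% of 4-fold differences in simulated data.

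Promoters of 6 keratins among those with the largest differences are printed to show the sequence in which Tcf/Lef letters would lie next to a start site. They are the 250 bases before the start, 5′ to 3′ on the gene's strand, from RefSeq on GRCm38.p6, which held windows for 33 of the 45 genes and none for Krt15, Krt16 or Krt17. Capitals mark the Tcf/Lef core CTTTGA or CTTTGT on either strand and the TATA box letters TATAAA or TATATA on the gene's strand. These motifs were chosen after the values were seen. Krt2, Krt24, Krt77 and Krt79 were lower in knockdown wounds, Krt24, Krt77 and Krt79 were lower in the stabilised wound too, and Krt27 and Krt71 are the inner root sheath keratins.
Krt2, chr15:101818170-101818419, minus strand: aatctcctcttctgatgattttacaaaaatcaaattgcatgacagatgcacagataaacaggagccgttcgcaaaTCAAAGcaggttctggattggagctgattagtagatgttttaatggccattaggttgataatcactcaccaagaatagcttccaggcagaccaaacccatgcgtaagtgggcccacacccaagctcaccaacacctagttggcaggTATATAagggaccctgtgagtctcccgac
Krt24, chr11:99285263-99285512, minus strand: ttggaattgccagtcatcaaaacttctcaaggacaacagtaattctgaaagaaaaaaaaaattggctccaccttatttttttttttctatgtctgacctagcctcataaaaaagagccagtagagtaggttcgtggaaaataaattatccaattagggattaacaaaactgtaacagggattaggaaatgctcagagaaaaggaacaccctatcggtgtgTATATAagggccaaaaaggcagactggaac
Krt77, chr15:101869706-101869955, minus strand: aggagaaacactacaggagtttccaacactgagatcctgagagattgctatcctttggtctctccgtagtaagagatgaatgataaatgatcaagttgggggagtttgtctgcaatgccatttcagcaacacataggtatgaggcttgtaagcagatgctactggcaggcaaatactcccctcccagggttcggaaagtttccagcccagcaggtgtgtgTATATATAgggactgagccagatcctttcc
Krt79, chr15:101940325-101940574, minus strand: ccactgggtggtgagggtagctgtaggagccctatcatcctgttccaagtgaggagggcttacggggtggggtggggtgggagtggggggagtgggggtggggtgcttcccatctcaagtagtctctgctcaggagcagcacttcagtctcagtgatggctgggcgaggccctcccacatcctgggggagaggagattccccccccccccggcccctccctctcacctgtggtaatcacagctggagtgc
Krt27, chr11:99351119-99351368, minus strand: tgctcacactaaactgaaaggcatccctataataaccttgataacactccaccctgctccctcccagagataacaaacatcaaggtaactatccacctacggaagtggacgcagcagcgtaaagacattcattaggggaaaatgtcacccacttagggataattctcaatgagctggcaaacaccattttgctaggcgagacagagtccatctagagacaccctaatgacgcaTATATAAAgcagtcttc
Krt71, chr15:101743098-101743347, minus strand: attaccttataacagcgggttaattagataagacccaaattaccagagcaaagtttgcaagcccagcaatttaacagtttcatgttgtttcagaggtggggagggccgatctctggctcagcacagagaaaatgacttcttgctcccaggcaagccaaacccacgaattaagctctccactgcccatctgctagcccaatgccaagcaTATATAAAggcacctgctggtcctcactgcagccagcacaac
In the Krt2 window the letters TCAAAG, which are CTTTGA read on the other strand, begin 175 bases before the start. No other window of these 6 holds a Tcf/Lef core. TATATA begins 29 bases before the start of Krt2, 30 before that of Krt24 and 30 and 28 before that of Krt77, the last 2 copies overlapping. In Krt27 and Krt71 TATATA overlaps TATAAA, beginning 17 and 15 bases before the start of Krt27 and 42 and 40 before that of Krt71. The Krt79 window holds none of these letters and is rich in G runs. Over the 34 windows of the family, a Tcf/Lef core was present in 10 (29.4%), against 27.6% of all 32851 promoter windows. TATAAA was present in 13 keratin windows (38.2%) against 7.6% of all windows, and TATATA in 8 (23.5%) against 5.2%. By these letters the keratin windows held Tcf/Lef cores about as often as other promoters and TATA letters more often, as a description of sequence with no bearing on which factor bound.

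The proteins that anchor keratin filaments, and the factors that act upstream of keratin genes, were read from lists of the same epithelium. Hemidesmosome genes tie the basal keratins to the basement membrane, and 7 of 7 measured were lower in knockdown wounds, 5 of them at an unadjusted p under 0.05 and 0 after adjustment. Over all genes, 48.1% were lower and 2.52% were lower at that p. Their median was -0.80 log2, with Dst, which encodes the epidermal plakin BPAG1, at -1.20 and Lamb3, a chain of an epidermal laminin, at -1.01. Against the GFP control, Dst differed by -1.31 and Lamb3 by 0.72 in the stabilised wound. Desmosome genes tie keratins to cell junctions, and 8 of 9 were lower in knockdown wounds with a median of -0.46, led by the cadherin Dsg2 at -1.12 and the plaque protein Pkp1 at -0.85. Of 10 desmosome genes compared, 0 were at least 2-fold lower in the stabilised wound at their bound. Dsg1a was detected in the GFP control alone, too near the floor for a fold, and Jup, plakoglobin, was 0.71 higher.

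Epithelial transcription factors were lower in knockdown wounds in 12 of 12, against 48.1% of all genes, with 1 at an unadjusted p under 0.05, against 2.52% of all genes, and 0 called by limma. Their median was -0.45 log2. Trp63, the p63 factor that basal keratinocytes need, differed by -1.17, and Tfap2c by -0.999. Their median in the stabilised wound was -0.29, with Gata3 at -0.83 and Trp63 at -0.70. Epithelial adhesion genes were lower in 7 of 8 with a median of -0.43 in knockdown wounds, where the splicing factor Esrp2 read -0.88 and Sfn -0.76. Ocln, occludin, was below detection in the stabilised wound and read 6.32 log2 in the GFP control, at least 1.02-fold lower, and the claudin Cldn1 differed by -1.02. Cornified envelope genes, which act in the last step of differentiation, were lower in 6 of 12 and higher in 6 in knockdown wounds, with a median of -0.03. Sprr2d differed by 0.66 and the transglutaminase Tgm3 by -0.47. Tgm3 was 1.15 higher in the stabilised wound and Flg2, a filaggrin relative, differed by -2.29. Hair follicle differentiation genes were largely below detection, with 3 of 15 tested in knockdown wounds, of which 2 were lower, Gata3 at -0.74 and Dlx3 at -0.33. Crym and the hair cortex gene S100a3 were below detection in the stabilised wound and read 7.49 and 7.22 log2 in the GFP control, at least 2.29-fold and 1.89-fold lower.

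**Figure D4:**
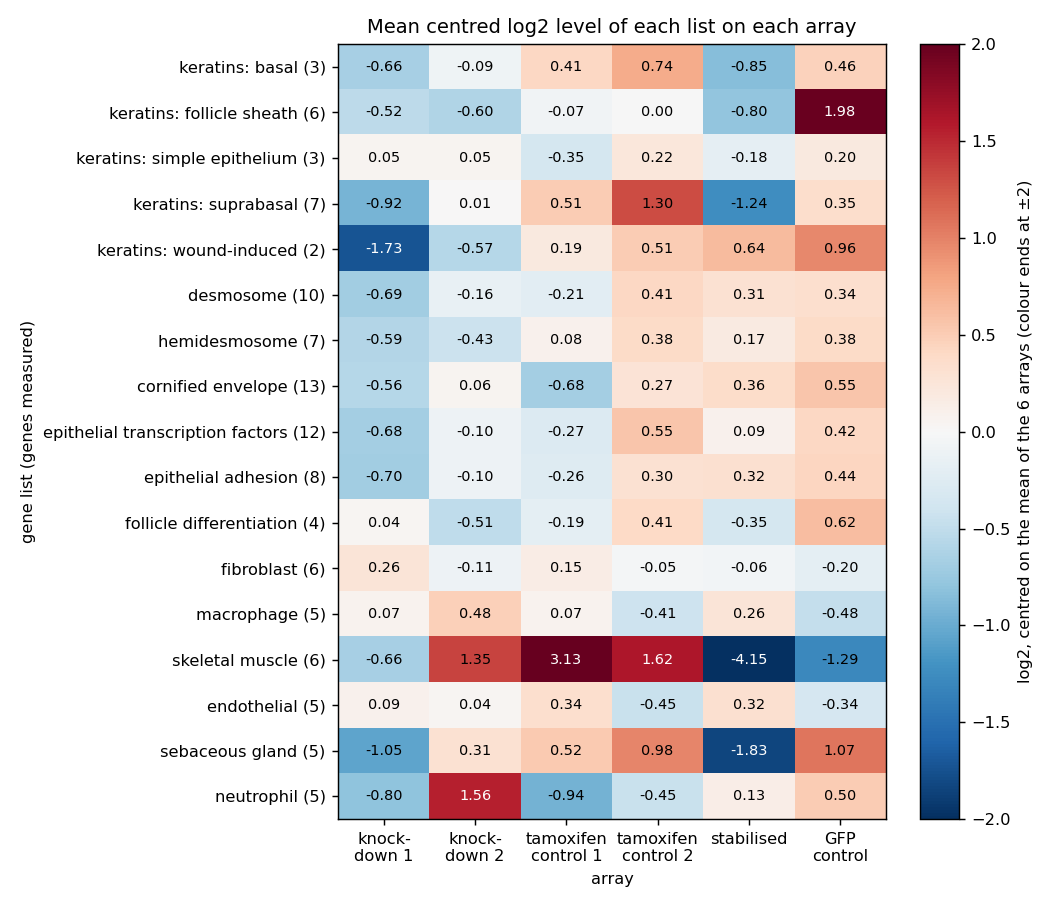
Mean log2 level on each array of the gene lists and of the keratin groups with more than 1 gene detected. Values are centred per gene on the mean of the 6 arrays, with the number of genes measured in brackets. The hair shaft and other keratin groups, with 1 gene each, are not drawn. Knockdown replicate 1 is lowest for wound-induced keratins (-1.73), the follicle sheath keratins peak in the GFP control (1.98), and the sebaceous and skeletal muscle lists vary widely between arrays. The 6 sheath genes include Krt79 of the upper follicle. Krt27, Krt28 and Krt71 among them were detected in the GFP control alone and so entered through the array where they are highest.

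Markers of other cell types differed beside the keratins, and their part in the keratin values was not tested. Sebaceous gland markers, which sit with Krt79 in the pilosebaceous unit, were lower in knockdown wounds in 4 of 4 tested (7 listed). Over all genes, 48.1% were lower. The sebaceous centred means were -1.05 and 0.31 in knockdown wounds against 0.52 and 0.98 in controls. Of 5 compared in the adenovirus pair, 4 were below detection in the stabilised wound and entered through the GFP control alone. At their bound, 3 of the 5 were at least 2-fold lower there, where 3.3% of all genes were. The centred mean of measured values was -1.83 in the stabilised wound against 1.07 in the GFP control. Fa2h was below detection in the stabilised wound at 5.35 log2 and read 11.49 in the GFP control, and Scd1 read 9.54 against 12.74. Skeletal muscle markers were lower in knockdown wounds in 6 of 6, against 48.1% of all genes. Their centred means there were -0.66 and 1.35 against 3.13 and 1.62 in controls. At their bound, 4 of 4 were at least 2-fold lower in the stabilised wound, against 3.3% of all genes, with 2 below detection there. Muscle centred means were -4.15 in the stabilised wound and -1.29 in the GFP control. Muscle and sebaceous markers, which come from different layers of the excised tissue, thus lay on the side of Krt79 and Krt15 in both comparisons. Fibroblast markers had medians of 0.04 and 0.00, macrophage markers of 0.13 and 0.87, and endothelial markers of 0.15 and 0.72 in the knockdown and stabilised comparisons. Neutrophil markers had a median of 0.86 in the knockdown comparison, with 4 of 5 higher and 1 lower, where 48.1% of all genes were lower. Their median in the stabilised comparison was -0.30. Knockdown replicate 1 had the lowest centred mean of the 6 arrays for the desmosome, hemidesmosome, transcription factor and epithelial adhesion lists, at -0.69, -0.59, -0.68 and -0.70.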

How the data were processed

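Total RNA from mouse wounds was measured on 6 Illumina bead arrays. A deposited table of 45281 probes holds, per the file headers, each array's intensity (average signal) and detection p-value. The second deposited table is on the log2 scale and gives all arrays the same quantiles, within 0.0874 of limma's neqc (offset 16) on the deposited intensities. The submitters' processing notes name R 2.14 and no other tool, and its normalization is not stated there. Stray text (2 lines, 0.00442%) was dropped.

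Probes were named from the platform annotation: 34885 had 1 gene symbol, 18 several and 10378 none. Each gene was read from its brightest probe, by the mean of all arrays. Knockdown against tamoxifen control was tested with limma 3.58.1 in R 4.3.3 (lmFit, default eBayes, two-sided, Benjamini-Hochberg) on genes detected (p under 0.01) in 2 or more of the 4 arrays. The adenovirus pair was compared without a test, on genes detected on at least 1 array, counted from 2-fold. The difference between comparisons was tested on genes detected on at least 2 of 6 arrays. A fold with 1 group below detection is a bound, set with the array's lowest detected signal (5.95 to 6.30 log2), or with the measured value where that is higher, and is written as at least N-fold. The number of arrays limits the precision. Any 2 arrays shared at most 2 identical signals, so none was a duplicate. Each limma step was tested on simulated data. The knockdown fit recovered 0% of simulated 2-fold changes and 72% of 4-fold ones, with 7 false calls. The difference between comparisons recovered 0% at 2-fold, 2% at 4-fold and 34% at 8-fold. The simulated spread was drawn around 0.19 log2, while keratin SDs within a tamoxifen group reached 1.73, so recovery for such keratins was not measured.

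Keratins are given by array where the tamoxifen groups do not overlap and differ by at least 1 log2, where the adenovirus arrays differ by at least 1 log2, and for Krt1, Krt5, Krt10, Krt14, Krt15, Krt16 and Krt17. Each epithelial list names its 2 members with the largest difference in each comparison. The members, lists, tests and naming rule were chosen with earlier results of these data known. Alternatives changed the normalization, detection threshold, probe choice, eBayes setting, replicate block and replicates.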

Additional observations from a re-analysis of the deposited data

How the results depend on the processing

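The count of keratins called by limma in the knockdown comparison stayed at 0 under each alternative run, and 22 of 45 genes lay below detection on every array, where no difference can be read. Of the keratins measured, 14 of 16 were lower with neqc intensities (median -1.15 log2), 14 of 16 with raw median-centred arrays (median -0.74, with 9 in place of 11 not overlapping) and 12 to 15 of 16 when 1 replicate was left out (medians -0.76 to -1.43). Raw median-centred values moved Krt2 to -3.50, Krt24 to -1.02 and Krt84 to -0.47 log2. Without a filter 31 of 45 were lower with a median of -0.10, with a detection p under 0.05 18 of 21 with -0.49, and with every detected probe 18 of 20 with -0.45. Most of the genes that a looser filter adds lie near the detection floor. Without knockdown replicate 1, 7 genes passed limma's threshold, none of them a keratin, so the count over all genes ranged from 0 to 7 when a replicate was left out. Directions that reversed when a replicate was left out were those of Krt78 (range -0.79 to 0.49, above 0 without knockdown replicate 1 or control replicate 2), Krt80 (-1.01 to 0.27, above 0 without control replicate 2) and Krt7 (-0.24 to 0.78, below 0 without control replicate 1).

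In the adenovirus pair, the count at least 2-fold higher was 0 with raw median-centred arrays and 0 among genes detected on both arrays, where 5 of 14 were lower. With limma's spread pooled from the tamoxifen groups, 0 keratins and 1 of all genes were called, and 7 of 17 keratins had an unadjusted p under 0.05, against 9.15% of all genes. The 17 include Krt2, which was below detection on both adenovirus arrays. In the difference between comparisons, 0 keratins were called under each alternative.

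Replicate numbers match age in the tamoxifen groups. Same-numbered arrays thus share an age, but the labels name no shared litter, batch or day, and their deviations correlated by 0.126. With the replicate block, limma called 0 genes. At an unadjusted p under 0.05 there were 746 of all genes in either direction, and 9 keratins were lower. The smallest keratin adjusted p in that limma fit was 0.631.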
